A study of Mus musculus with 16 samples.

Results

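The genes described here are the proto-oncogene Myc, its relative Mycn, their shared partner Max, and the further Max partners Mnt, Mxd3, Mxd4 and Mga. They were taken by name from the FPKM table, and each matched 1 locus with the same identifier in the count table. All 7 are among the 23282 named loci used, and all 7 passed the filter on low counts that left 16130 genes for testing.

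RNA was sequenced from embryoid bodies, floating aggregates of mouse embryonic stem cells, at day 6 of retinal differentiation by SFEBq, a serum-free quick-reaggregation culture. The cells carry a GFP knock-in at Rx, a gene of the eye field, and were grown in GMEM with 5% KSR, with 2% matrigel from day 1. In the WT group the cells were untreated. The KO group was 1 clone (number 3) with a knockout of Wdr5, the gene of a core subunit of the COMPASS histone H3 lysine 4 methyltransferases and a known binding partner of the MYC protein, and it received no doxycycline. Both rescue groups carried the same knockout plus a doxycycline-inducible human WDR5, with doxycycline from T12h in 1 group and from T48h in the other, and the groups are called T12h and T48h. Each group had 2 biological duplicates, called a and b here with no order, and each duplicate had 2 technical runs that were summed. The labels do not say whether the duplicates were separate cultures. Each p-value therefore reflects the scatter among these 8 libraries alone, which may be technical scatter.

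MYC and MYCN are basic helix-loop-helix leucine zipper proteins that bind the E-box sequence as dimers with MAX and activate genes of ribosome production, metabolism and the cell cycle. MNT and the MXD proteins dimerise with the same MAX, bind the same E-boxes and recruit the Sin3 and histone deacetylase corepressor, so they act as antagonists. MGA, a very large protein with a T-box and a second DNA-binding domain, also pairs with MAX and is the scaffold of PRC1.6, a polycomb complex that keeps germline genes silent in embryonic stem cells.

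Promoter sequence was looked at because several of these genes changed, though not all in the same direction. E-boxes and E2F sites are also the known DNA signals of this network. RefSeq promoter windows on GRCm38.p6, the build also called mm10, run from 250 bases before to 50 after a start site, and they were available for 6 of the 7 genes, Mycn, Max, Mnt, Mxd3, Mxd4 and Mga. The palindromic E-box CACGTG was in 3 of these 6 windows, against 7.15% of all 32851 windows. It began 219 bases before the start in Mxd4, 123 bases before it in Mnt and 3 bases before it in Max, where the match spans the start. The matches are shown with 12 bases on each side, in the direction of the gene and with the E-box in capitals. They lie at chr12:76962234-76962263 on the minus strand (Max), chr11:74830789-74830818 on the plus strand (Mnt) and chr5:34187912-34187941 on the minus strand (Mxd4).
Max: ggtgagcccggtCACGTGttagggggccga
Mnt: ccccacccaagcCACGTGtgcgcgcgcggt
Mxd4: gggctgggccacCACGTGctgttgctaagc
The flanks differ among the 3 genes. These letters were not in the windows of Mycn, Mga and Mxd3, with 1 window searched per gene. The Mga window, chr2:119896978-119897277, does not reach the start of its deposited locus at 119872748. Mga and Mycn have 4 and 2 start sites in the deposited table, and some may lie outside the windows. In the 8 lists used below, a gene was counted if any of its windows held the E-box. The 7.15% is instead a share of windows, 32851 for 27025 genes, so the 2 measures are not alike. Among the matched genes of these lists, the E-box was in 6 of 14 germline genes (42.9%), 2 of 6 other Max and Mlx network genes (33.3%) and 7 of 22 growth genes activated by MYC (31.8%). It was in 1 of 7 PRC1.6 genes, 1 of 7 genes repressed by MYC, 1 of 10 Sin3 and NCoR genes, 1 of 12 cofactors and 0 of 8 turnover genes.

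Mxd4 and Mycn, the members with the widest range between libraries, are shown at greater length. The stretch for Mxd4 is the 240 bases before the outermost annotated start, chr5:34187721-34187960 on the minus strand, with its only E-box in capitals.
Mxd4: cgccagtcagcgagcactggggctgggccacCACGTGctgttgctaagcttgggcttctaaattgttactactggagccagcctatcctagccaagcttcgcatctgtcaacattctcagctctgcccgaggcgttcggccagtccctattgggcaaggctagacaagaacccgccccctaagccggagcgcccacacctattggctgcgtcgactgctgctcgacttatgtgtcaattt
The Mycn window held the E2F motif TTTGGCGC, searched on both strands, in 2 copies that begin 183 and 168 bases before the RefSeq start. At least 1 copy was in 0.514% of all windows, and 2 or more copies were in 2 windows of the 32851. Both copies are in capitals in the 172 bases before the outermost annotated Mycn start, chr12:12941915-12942086 on the minus strand.
Mycn: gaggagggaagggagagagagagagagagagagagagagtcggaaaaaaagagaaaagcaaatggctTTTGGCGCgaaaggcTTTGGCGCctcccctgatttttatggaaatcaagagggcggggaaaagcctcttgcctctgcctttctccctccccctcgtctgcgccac
A second E2F motif, TTTCCCGC, was in none of the 6 windows and in 1.07% of all windows. A match of letters is a description of the sequence, and binding was not measured here.

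The 8 libraries held 32476669 to 65687430 estimated fragment counts in named genes. The targeted gene Wdr5, a check of the labels, had 186 and 187 CPM (normalised counts per library of common size) in WT, 32.5 and 28.4 in the KO, 329 and 337 at T12h and 280 and 294 at T48h. Its log2 fold change in the KO against WT was -2.61 ± 0.08 (SE; edgeR adjusted p = 2.74e-11). Transgene reads that aligned to the mouse gene would be included. The groups differed in their makeup. Summed CPM of 5 eye field markers was 1160 to 1230 in WT, 4.88 to 8.29 in the KO, 1370 to 1410 at T12h and 18.5 to 20.2 at T48h, so the labelled retinal fate had its markers in WT and the T12h rescue. Summed CPM of 4 pluripotency markers was 364 to 370, 505 to 509, 311 to 317 and 23.7 to 25.5 in the same order, and most of it outside the KO was Sox2, which is also a neural gene and averaged 303, 122, 294 and 13.9 CPM. The other 3 rose in the KO and were lower at T12h than in WT, with averages of 21.7, 231, 6.67 and 3.71 CPM for Pou5f1, 25.3, 91.0, 6.24 and 5.19 for Nanog and 16.4, 62.9, 6.5 and 1.76 for Zfp42. That of 5 cardiac and lateral mesoderm markers was 74.0 to 77.7, 228 to 239, 89.6 to 102 and 1910 to 1940. Most of its KO rise was Gata4, from 60.2 CPM on average in WT to 216. Hand1 (8.53 to 12.3) and Myl7 (0.623 to 2.01) rose less. Tbx20 went the other way, from 6.18 to 2.48, and Nkx2-5 averaged 0.0555 and 0.0208. In the T12h rescue against WT, Gata4 was higher (log2 fold change 0.52), while Hand1 (-0.73) and Tbx20 (-0.68) were lower. Myl7 and Nkx2-5 did not pass the test there. Endoderm markers (4 genes) summed to 84.2 to 86.1, 231 to 236, 85.4 to 106 and 58.9 to 60.9 CPM. Afp went from 42.6 in WT to 9.77 in the KO, against the sum, and averaged 22.4 at T12h and 1.2 at T48h. At T12h, Sox17, Ttr and Foxa2 were higher than in WT (log2 fold change 0.54, 1.02 and 0.83), and Afp did not pass the test. At T48h against WT, Sox17 (0.31) and Ttr (0.79) were higher although the sum fell, and Foxa2 did not pass. Fibroblast markers (4 genes) summed to 54.0 to 60.6, 15.8 to 17.7, 95.1 to 120 and 772 to 839. Most of the KO fall was Col1a2, from 51.4 CPM on average in WT to 4.93, and Col1a2 was also most of the T12h sum. Thy1 went the other way, from 0.997 in WT to 5.75 in the KO (2.52, edgeR adjusted p = 0.00314). Col1a1 (4.26 to 5.74) and Postn (0.69 to 0.363) did not pass the test there. Thy1 at T48h against WT did not pass either (0.44, edgeR adjusted p = 0.595). Germ cell markers (3 genes) summed to 5.49 to 6.08, 38.8 to 45.3, 3.26 to 3.59 and 4.07 to 5.07, and no marker of the 6 lists was at 0 in both libraries of a group. The part of these shifts in the members' differences was not tested. In bulk RNA, fewer cells of a type and less RNA per cell cannot be told apart, and without a spike-in every CPM is relative to the rest of its library.

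Compared per transcript length, the network was led by Mycn and Max in WT. FPKM, fragment counts scaled by transcript length and library size, averaged 32.8 for Mycn, 30.4 for Max, 20.5 for Mga, 19.5 for Myc, 11.0 for Mxd4, 9.66 for Mnt and 2.57 for Mxd3 (mean, n = 2). The Mycn and Max libraries overlapped in that order, as did those of Mga and Myc, and the other neighbours did not overlap. In the KO the order was Mycn at 57.1, Mxd4 at 46.2, Max at 34.3, Mga between 23.3 and 24.8, Mnt at 11.7, Myc at 9.3 and Mxd3 at 2.18 FPKM, with no overlap between neighbours. Myc thus stood above Mxd4 and Mnt in WT and below both in the KO, while Mxd4 stood below Max, Mga and Myc in WT and above them in the KO.

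**Figure D1:**
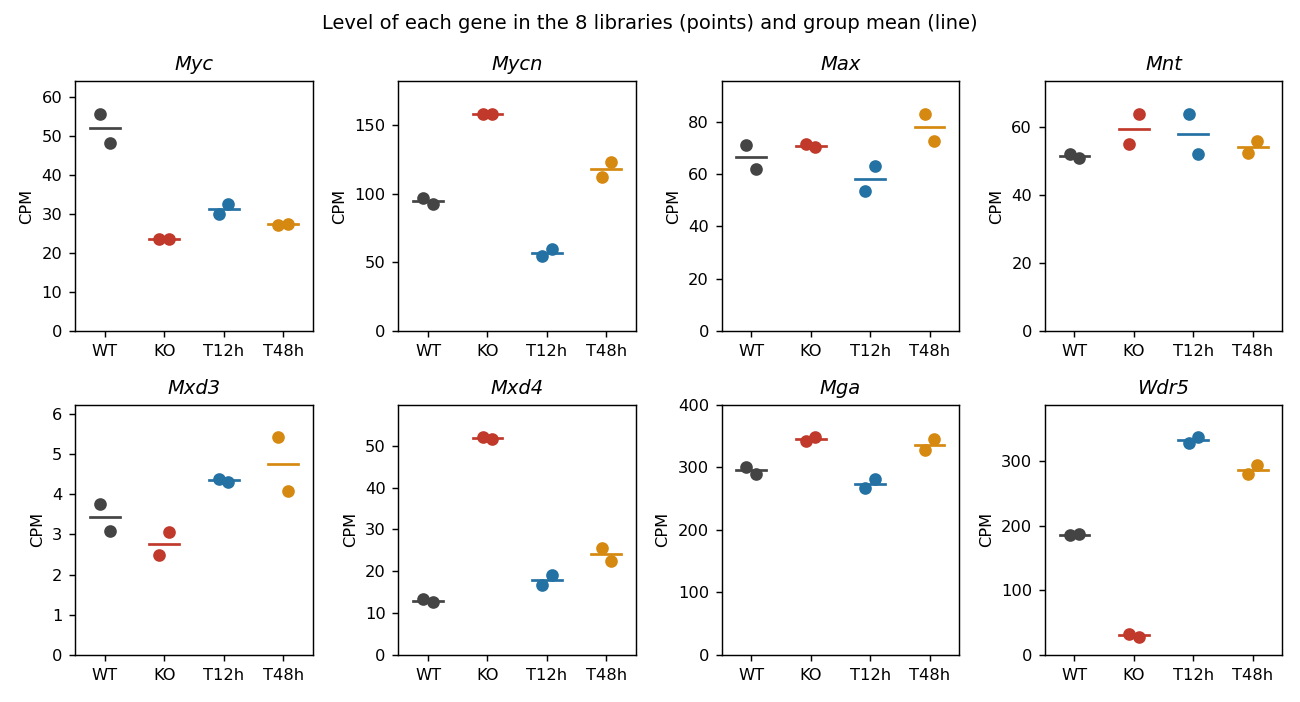
CPM of the 7 genes and of Wdr5 (vertical axes, linear from 0) in the 8 libraries, with 2 points per group and a line at the group mean. Mxd4 in the KO (52.0 and 51.7 CPM) lies above all other groups, Mycn is lowest at T12h (54.6 and 59.7 CPM), and Myc is highest in WT (55.8 and 48.3 CPM).

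Myc and Mycn, the 2 activators among the members, moved in opposite directions in the KO. Myc (mm10, chr15:61985341-61990361, plus strand, a protein-coding gene) stood at 55.8 and 48.3 CPM in WT, 23.6 and 23.6 in the KO, 30.1 and 32.6 at T12h, and 27.2 and 27.6 at T48h. Both WT libraries were above the 6 others, and the 4 groups did not overlap. Group means were 52.1 ± 5.25, 23.6 ± 0.0189, 31.4 ± 1.79 and 27.4 ± 0.278 CPM (SD, n = 2 each). Myc was lower in the KO than in WT, with a log2 difference of -1.14 ± 0.12 (± SE here and below; edgeR adjusted p = 1.56e-06). The T12h rescue was higher than the KO by 0.41 ± 0.11 (edgeR adjusted p = 0.00682), yet it remained below WT at -0.73 ± 0.11 (edgeR adjusted p = 0.000889). The T48h rescue was below WT, with a log2 difference of -0.93 ± 0.11 (edgeR adjusted p = 1.89e-05), and its difference from the KO, 0.21 ± 0.12, did not pass the test (edgeR adjusted p = 0.118). The log2 difference between the rescues, T48h minus T12h, was -0.20 ± 0.11 and did not pass either (edgeR adjusted p = 0.174). Neither rescue therefore had Myc at the WT level.

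Mycn (chr12:12936093-12941836, minus strand, with 2 start sites in the deposited table) is the family member known for its role in neural progenitors and embryonic stem cells. It stood at 96.4 and 92.1 CPM in WT, 158 and 158 in the KO, 54.6 and 59.7 at T12h, and 112 and 123 at T48h. The KO libraries were highest and the T12h libraries lowest, with no overlap between any groups. In the KO, Mycn was higher than in WT by 0.74 ± 0.08 (edgeR adjusted p = 2.98e-06). At T12h it was lower than in the KO, with a log2 difference of -1.46 ± 0.08 (edgeR adjusted p = 4.66e-09) and also lower than in WT, with a log2 difference of -0.72 ± 0.08 (edgeR adjusted p = 8.99e-05). At T48h it lay between, with a log2 difference from the KO of -0.43 ± 0.08 (edgeR adjusted p = 0.000374) and from the T12h rescue of 1.04 ± 0.08 (edgeR adjusted p = 1.95e-07). The T48h rescue also exceeded WT by 0.32 ± 0.08 (edgeR adjusted p = 0.00537). That last call was lost without WT b (log2 fold change 0.23, adjusted p = 0.125), without T48h b (0.23, adjusted p = 0.0681) and with upper-quartile scaling (0.19, adjusted p = 0.0601).

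Mycn made up more of the summed Myc and Mycn RNA in the KO and at T48h than in WT and at T12h. The FPKM ratio of Mycn to Myc was 1.61 and 1.77 in WT, 6.16 and 6.13 in the KO, 1.69 and 1.71 at T12h, and 3.86 and 4.13 at T48h. WT and the T12h rescue overlapped in this ratio, and the KO was highest. Mycn made up 61.7% and 63.8% of the summed FPKM of both genes in WT and 86.0% in each KO library. The sum itself was 54.7 and 49.9 FPKM in WT, 66.3 and 66.6 in the KO, 30.3 and 32.9 at T12h, and 49.1 and 52.5 at T48h. The T12h rescue thus had the WT mixture at a lower total, while the T48h rescue overlapped WT in the total with a different mixture. These ratios carry no test.

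Max, the obligate partner, varied less than either activator. Max (chr12:76937269-76962248, minus strand) stood at 71.1 and 61.9 CPM in WT, 71.3 and 70.3 in the KO, 53.6 and 62.9 at T12h, and 83.0 and 72.5 at T48h. The WT range overlapped those of the KO and the T12h rescue. KO and WT differed by 0.09 ± 0.11 (edgeR adjusted p = 0.474), which does not show that they were equal. Max was lower at T12h than in the KO, with a log2 difference of -0.28 ± 0.10 (edgeR adjusted p = 0.0306), and higher at T48h than at T12h by 0.42 ± 0.11 (edgeR adjusted p = 0.00505). Leaving out KO a, KO b or T12h a ended the first call (adjusted p = 0.106, 0.0831 and 0.315), with a log2 fold change of -0.15 without T12h a. Leaving out T12h a or T48h a ended the second (0.26, adjusted p = 0.121, and 0.29, adjusted p = 0.0799). T48h against KO (0.13 ± 0.10), T12h against WT (-0.19 ± 0.11) and T48h against WT (0.22 ± 0.11) did not pass the test (edgeR adjusted p = 0.273, 0.271 and 0.0998). The annotation places the uncharacterised gene model Gm47218 on the same strand within the Max locus, so reads in its 1319 bases could belong to either.

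Among the antagonists, Mxd4 had the largest change of all 7 members. Mxd4 (chr5:34176569-34187710, minus strand), a MXD protein usually linked to the exit from proliferation, stood at 13.3 and 12.7 CPM in WT, 52.0 and 51.7 in the KO, 16.7 and 19.2 at T12h, and 25.6 and 22.5 at T48h. No 2 groups overlapped, with WT lowest and the KO highest. The KO was higher than WT by 2.00 ± 0.13 (edgeR adjusted p = 2.71e-08), a 4.0-fold difference. Both rescues were lower than the KO, with log2 differences of -1.53 ± 0.13 at T12h and -1.11 ± 0.13 at T48h (edgeR adjusted p = 2.55e-07 and 4.73e-06). Both remained above WT, T12h by 0.47 ± 0.13 and T48h by 0.89 ± 0.13 (edgeR adjusted p = 0.0313 and 9.11e-05). The T12h excess over WT was lost without WT a, WT b or T12h b (adjusted p = 0.123, 0.153 and 0.213) and when 1 technical column of each pair, the first, was used (0.32, adjusted p = 0.174). T48h exceeded T12h by 0.42 ± 0.13 (edgeR adjusted p = 0.0147), a call lost without T12h a (0.28, adjusted p = 0.198) or T48h a (0.30, adjusted p = 0.137).

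Mnt, the antagonist present in most cells irrespective of proliferation, passed no test. Mnt (chr11:74830924-74845725, plus strand) stood at 52.2 and 51.0 CPM in WT, 55.1 and 63.9 in the KO, 64.0 and 52.1 at T12h, and 52.3 and 55.9 at T48h. The highest library, T12h a, was 1.26 times the lowest, WT b. The KO, T12h and T48h ranges overlapped each other, and WT overlapped T12h. Its largest log2 fold change was 0.20 ± 0.11 in the KO against WT (edgeR adjusted p = 0.126). In the other comparisons it was 0.17 for T12h against WT, 0.07 for T48h against WT, -0.03 for T12h against KO, -0.14 for T48h against KO and -0.10 for T48h against T12h. With upper-quartile scaling, T48h against KO passed at -0.28 (adjusted p = 0.0406).

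Mxd3, an antagonist known from cycling cells in S phase, was the lowest of the 7. Mxd3 (chr13:55322055-55329730, minus strand) had 104 to 237 counts per library and stood at 3.77 and 3.09 CPM in WT, 2.49 and 3.05 in the KO, 4.39 and 4.32 at T12h, and 5.42 and 4.09 at T48h. Both rescues were above WT and KO in every library. T48h exceeded the KO by 0.78 ± 0.29 (edgeR adjusted p = 0.031), a call that 11 of 19 alternatives ended. Without KO a it was 0.60 (adjusted p = 0.134) and without T48h a 0.54 (adjusted p = 0.181). Leaving out WT a, WT b, T12h a or T12h b ended it too, at 0.73 to 0.75 (adjusted p = 0.0595, 0.0508, 0.0514 and 0.051). T12h against KO was 0.66 ± 0.29 and did not pass (edgeR adjusted p = 0.0648), nor did KO against WT at -0.31 ± 0.30 (edgeR adjusted p = 0.371). The locus shares 3218 bases with Prelid1 on the opposite strand, and the strand setting of the counting is unknown here, so reads of the pair cannot be told apart there.

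Summed per length, the antagonists were closer to the activators in every group than in WT. Mnt, Mxd3 and Mxd4 together had 23.9 and 22.5 FPKM in WT, 58.9 and 61.4 in the KO, 29.4 and 29.1 at T12h, and 35.2 and 32.3 at T48h. Mxd4 made up 47.1% and 47.5% of this sum in WT and 78.3% and 75.5% in the KO. Divided by the sum of Myc and Mycn, the antagonists stood at 0.436 and 0.451 in WT, 0.888 and 0.923 in the KO, 0.969 and 0.883 at T12h, and 0.717 and 0.615 at T48h. WT was the lowest, and the KO and T12h ranges overlapped. The KO had more RNA of Mnt, Mxd3 and Mxd4 together (60.1 against 23.2 FPKM in WT). The T12h rescue had less RNA of Myc and Mycn together (31.6 against 52.3 FPKM in WT). Max divided by the same sum of activators was 0.596 and 0.565 in WT, 0.518 and 0.516 in the KO, 0.809 and 0.873 at T12h, and 0.773 and 0.629 at T48h. Max was below the sum of Myc and Mycn in every library, and these RNA ratios say nothing of protein levels.

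**Figure D2:**
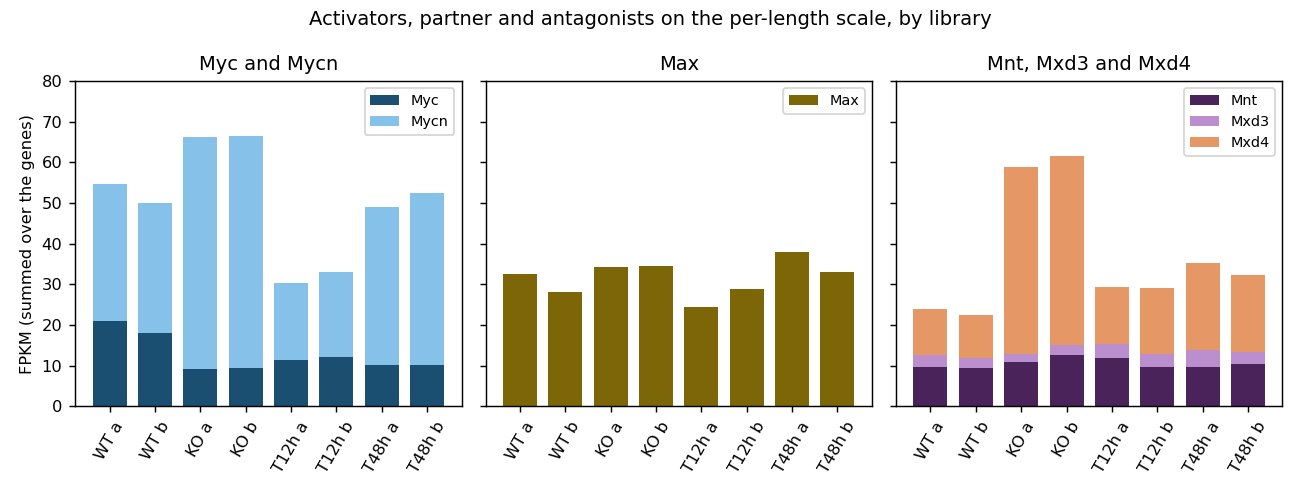
FPKM by library, stacked from 0, for Myc and Mycn (left), Max (middle) and Mnt, Mxd3 and Mxd4 (right). The KO bars for the antagonists reach 58.9 and 61.4 FPKM, mostly Mxd4, while the activators are lowest at T12h at 30.3 and 32.9 FPKM.

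Mga, the scaffold of PRC1.6, had small changes at high counts. Mga (chr2:119872748-119969581, plus strand, 4 start sites in the deposited table) stood at 300 and 290 CPM in WT, 342 and 348 in the KO, 267 and 281 at T12h, and 328 and 345 at T48h. The KO and T48h libraries were above WT, the T12h libraries were below it, and KO and T48h overlapped. Mga was higher in the KO than in WT by 0.22 ± 0.07 (edgeR adjusted p = 0.00912). This call was lost without WT b, KO a or KO b (adjusted p = 0.124, 0.0591 and 0.0824). The T12h rescue was lower than the KO, with a log2 difference of -0.33 ± 0.07 (edgeR adjusted p = 0.000619), and T48h was higher than T12h by 0.30 ± 0.07 (edgeR adjusted p = 0.0021; 0.21, adjusted p = 0.0751 without T12h a). T48h against WT was 0.19 ± 0.07 (edgeR adjusted p = 0.0305), and 15 of 19 alternatives, each of the 8 left-out libraries among them, ended that call, with 0.11 and an adjusted p of 0.379 without WT b. T12h against WT was -0.11 and T48h against KO -0.04 (edgeR adjusted p = 0.33 and 0.649), though upper-quartile scaling called the latter at -0.18 (adjusted p = 0.028). The processed pseudogene Gm13998 lies within the locus on the opposite strand and shares 335 bases with it.

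Counted together, 3 of the 7 members were higher in the KO than in WT (Mycn, Mxd4 and Mga) and 1 was lower (Myc). Over all genes tested, 31.7% were higher and 32.4% lower in that comparison, so most of the transcriptome differed, and with 7 genes no count here is read as particular to the network. In the T12h rescue against the KO, 1 member was higher and 4 lower (Mycn, Max, Mxd4 and Mga), where 32.8% of all genes were higher and 32.1% lower. For the T48h rescue against the KO the counts were 1 higher and 2 lower, beside 34.2% and 33.2% of all genes. These comparisons share the KO libraries, and the values of each gene above are given side by side for that reason. For T48h against T12h, 4 members were higher and 0 lower by edgeR, beside 24.9% and 25.3% of all genes, with 0 lower also at an unadjusted p under 0.05, by DESeq2 and by limma on FPKM, and without T12h a only Mycn kept its call. Against WT, the T12h rescue had 1 member higher and 2 lower, beside 7.9% and 6.11% of all genes. These shares, used again below, include chromosome 8, on which no member lies. Without its genes, 795 of 15278 were higher and 826 lower. The T48h rescue had 3 higher and 1 lower against WT, beside 23.9% and 23.4%. The median log2 fold change of the members was 0.205, -0.283, -0.0354, 0.297, -0.108 and 0.224 in the order of the comparisons here, and that of all genes lay between -0.0394 and 0.004.

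**Figure D3:**
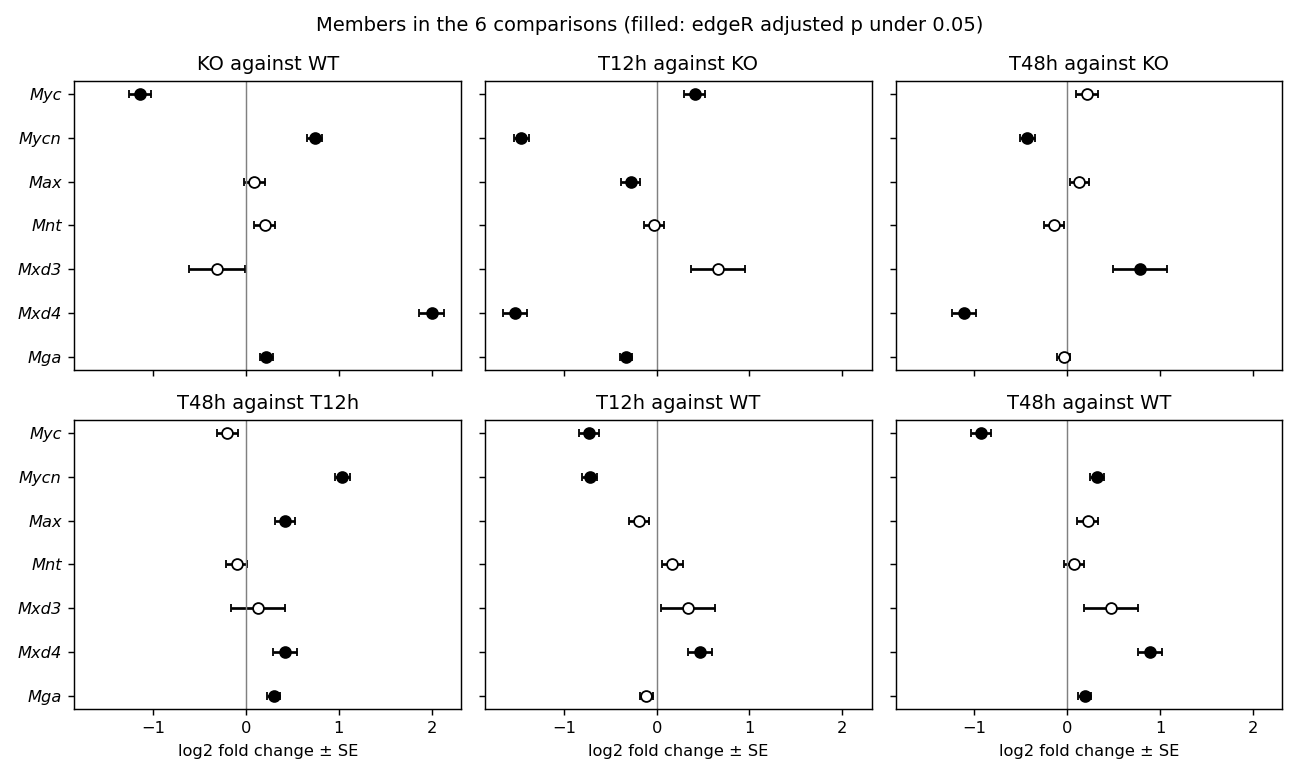
Log2 fold change of each member (horizontal axis, bars are ± 1 SE from edgeR) in the 6 comparisons, with filled points where the edgeR adjusted p was under 0.05. In the KO against WT, Mxd4 at 2.00 and Myc at -1.14 lie farthest from 0, and in the T12h rescue against the KO Mxd4 and Mycn lie at -1.53 and -1.46.

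Other genes followed the members' levels across the 8 libraries. Likeness was the root mean square distance between log2 CPM profiles centred on their means, over 10381 named genes of at least 5 CPM on average. Nearest to Mxd4 were Lsr, a tight-junction receptor, at 0.0787, Dab2, an endocytic adaptor, at 0.0836, and Commd3 at 0.113. Mycn was nearest to Oxr1 at 0.087, Txnip at 0.109 and Rab27a at 0.12. Txnip, an inhibitor of glucose uptake, averaged 155 CPM in WT, 267 in the KO, 107 at T12h and 185 at T48h. Myc was nearest to Lck at 0.145, Cadm1 at 0.151 and Arhgap39 at 0.153. Mga was nearest to Nup160 at 0.031 and Max to Phax at 0.0512. Mnt was nearest to Wipf2 at 0.0703 and Mxd3 to Mtch1 at 0.0978. The distance is not scaled to a gene's own spread, so members that vary little tend to have small ones. The Pearson correlation with the nearest gene was 0.994 for Mxd4, 0.988 for Mycn, 0.977 for Mga and 0.966 for Max. It was 0.96 for Mxd3, 0.944 for Myc and 0.846 for Mnt. Nearness over 8 libraries in 4 groups is a description of these profiles.

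The rest of the Max and Mlx network comprises the L-Myc gene Mycl (listed under its older symbol Mycl1), the antagonists Mxd1 and Mxi1, and the glucose-sensing branch of Mlx, Mlxip and Mlxipl. In the KO against WT, 2 of these 6 were higher and 2 lower (median log2 fold change -0.21). These counts stand beside 31.7% and 32.4% of all genes and are not read as particular to the list. Mlx, the Max-like partner, rose from 19.0 and 20.6 CPM in WT to 42.8 and 37.5 in the KO (1.02 ± 0.12, edgeR adjusted p = 9.48e-06), and was 21.8 and 22.6 at T12h and 25.3 and 25.3 at T48h. Mxd1 was also higher in the KO (0.73 ± 0.18), and Mxi1 (-0.64 ± 0.10) and Mlxip (-0.40 ± 0.08) were lower (edgeR adjusted p = 0.00305, 6.57e-05 and 0.00096). In the T12h rescue against WT, edgeR called 0 of the 6, beside 7.9% of all genes higher and 6.11% lower. Of the 6, 1 was lower at an unadjusted p under 0.05 and by DESeq2, with 0 by limma on FPKM. The third Myc gene, Mycl, behaved unlike Myc and Mycn: it stood at 47.7 and 53.0 CPM in WT, 49.6 and 49.9 in the KO, 61.0 and 54.8 at T12h, and 14.2 and 15.8 at T48h. The T48h rescue was the group apart, with log2 differences of -1.75 ± 0.11 from WT (edgeR adjusted p = 2.67e-08), -1.73 ± 0.11 from the KO (edgeR adjusted p = 1.62e-08) and -1.95 ± 0.11 from T12h (edgeR adjusted p = 7.98e-09). Mlxipl was below 1.5 CPM throughout and is listed at 0 in KO b.

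For the partners through which MYC acts, the regulators of its stability and the further lists below, counts stand beside the same shares of all genes as above (31.7% higher and 32.4% lower in the KO against WT, 32.8% and 32.1% at T12h against the KO, 34.2% and 33.2% at T48h against the KO), and none is read as particular to its list. Of 13 cofactors, 1 was higher and 4 lower in the KO (median -0.15), and 4 were higher and 0 lower by edgeR in the T12h rescue against the KO (median 0.10). At an unadjusted p under 0.05 there were also 0 lower, and DESeq2 and limma on log2(FPKM + 1) with no filter each called 1. The 1 higher in the KO became 0 without any 1 of the WT, KO or T12h libraries and 2 with limma. The 4 lower became 2 without WT a, with RLE scaling and with limma. The 4 higher at T12h became 2 without KO a or KO b, with RLE or upper-quartile scaling, with DESeq2, with limma and with the second technical column alone. Zbtb17, which encodes the MYC partner MIZ1, had -0.62 ± 0.11 in the KO (edgeR adjusted p = 0.000191) and was 0.66 ± 0.11 higher at T12h than in the KO (edgeR adjusted p = 0.000107). Kat2a, the acetyltransferase GCN5, had -0.30 ± 0.07 in the KO (edgeR adjusted p = 0.00203), and Hcfc1, a coactivator that also binds WDR5-containing complexes, had -0.21 ± 0.06 (edgeR adjusted p = 0.0101), a call lost without WT a (adjusted p = 0.0968) or KO a (adjusted p = 0.0685). Every one of the 9 turnover genes passed the test in the KO, 4 higher and 5 lower (median -0.31), and the 4 higher became 2 without WT b, KO a or KO b. Skp2, the F-box protein of a ligase that acts on MYC and on cell cycle inhibitors, stood at 141 and 145 CPM in WT, 55.1 and 51.1 in the KO, 152 and 164 at T12h, and 146 and 147 at T48h. Its log2 fold change was -1.43 ± 0.08 in the KO against WT (edgeR adjusted p = 3.56e-09). The ligase adaptor Trpc4ap (-0.47 ± 0.07) and the kinase Gsk3b (-0.38 ± 0.07) were also lower in the KO (edgeR adjusted p = 4.29e-05 and 0.000238). In the T12h rescue against WT, edgeR called 0 of the 9 turnover genes, beside 7.9% of all genes higher and 6.11% lower. There was 1 higher at an unadjusted p under 0.05 and by DESeq2, and 0 by limma on FPKM.

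The corepressor used by the antagonists and the complex built on Mga had members that changed in either direction in the KO. Of 13 Sin3 and NCoR genes, 3 were higher and 7 lower (median -0.20), beside 31.7% and 32.4% of all genes, and the 7 became 3 without WT a. The histone-binding subunit Rbbp7 was higher (0.95 ± 0.07), and Arid4b (-0.57 ± 0.07) and the corepressor Ncor1 (-0.58 ± 0.08) were lower (edgeR adjusted p = 4.63e-08, 1.73e-05 and 2.57e-05). At T48h against the KO, 9 of the 13 were higher and 1 lower (median 0.29), beside 34.2% and 33.2% of all genes. These counts were 5 and 3 with upper-quartile scaling, and the 1 lower became 0 without T48h a. Of 9 PRC1.6 genes, 2 were higher and 5 lower in the KO (median -0.37), and in the T12h rescue against the KO 6 were higher and 2 lower (median 0.45). The 2 higher in the KO became 1 without WT a, KO a, KO b or T12h b, and the 2 lower at T12h became 1 without WT b or any KO or T12h library. Yaf2, a RING-binding subunit, stood at 39.3 CPM on average in WT, 15.1 in the KO, 48.7 at T12h and 79.7 at T48h. E2f6, the DNA-binding subunit, averaged 74.0, 41.8, 73.3 and 59.6 CPM, and Ring1, a ubiquitin ligase subunit, 26.0 CPM in WT and 11.4 in the KO. Their log2 fold changes in the KO were -1.37 ± 0.12, -0.82 ± 0.08 and -1.19 ± 0.15 (edgeR adjusted p = 4.84e-07, 1.46e-06 and 1.04e-05).

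Germline genes that PRC1.6 is known to bind were, for the most part, higher in the KO, beside the germ cell marker sums given above, which share Ddx4 and Dazl with this list. Of 14, 9 were higher and 3 lower (median 1.84), beside 31.7% and 32.4% of all genes, and in the T12h rescue against the KO 1 was higher and 9 lower (median -3.04), beside 32.8% and 32.1% of all genes. The 1 became 2 without WT b, T48h a or T48h b. Taf7l, a testis-specific TFIID subunit, averaged 0.756 CPM in WT and 20.1 in the KO (4.73 ± 0.36, edgeR adjusted p = 9.41e-08). Ddx4, the germ cell RNA helicase VASA, averaged 2.71 and 20.8 (2.94 ± 0.24, edgeR adjusted p = 1.96e-07). Tdrkh, a piRNA factor, went the other way, from 56.6 to 4.91 CPM (-3.50 ± 0.17, edgeR adjusted p = 1.08e-09). Against WT the T12h rescue had 0 higher (also 0 at an unadjusted p under 0.05, by DESeq2 and by limma on FPKM) and 3 lower by edgeR (median -0.77), beside 7.9% and 6.11% of all genes. The 3 became 1 without WT a, T12h a or T12h b and 6 without T48h a or T48h b. Mga itself was 0.22 higher in the KO, as given above.

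Textbook targets of MYC did not move as 1 block, and their relation to the RNA of Myc and Mycn was not tested. Of 28 growth genes that MYC activates, 13 were higher and 6 lower in the KO (median 0.17), beside 31.7% and 32.4% of all genes. Cad, the first enzyme of pyrimidine synthesis, averaged 422 CPM in WT and 962 in the KO (1.19 ± 0.08, edgeR adjusted p = 2.71e-08). Ldha, lactate dehydrogenase A and also a hypoxia gene, went from 1380 to 598 (-1.21 ± 0.07, edgeR adjusted p = 4e-09), and the D-type cyclin Ccnd2 from 531 to 241 (-1.14 ± 0.07, edgeR adjusted p = 1.07e-08). The spermidine synthase gene Srm, chosen after its values were seen, had the largest rise of the list, from 67.8 to 169 CPM (1.32). In the T12h rescue, 5 of the 28 were higher and 20 lower than in the KO (median -0.49), beside 32.8% and 32.1% of all genes. Against WT, 2 were higher and 12 lower there (median -0.24), beside 7.9% and 6.11% of all genes. The 12 became 2 without WT a, 4 without T12h a and 6 without T12h b, and the 2 higher ranged from 0 to 4. At T48h against the KO, 4 were higher and 16 lower (median -0.29), beside 34.2% and 33.2% of all genes. Several of these genes, Npm1, Fbl, Eif4a1 and Hspe1 among them, have processed pseudogene copies, and the Nme1 locus also holds Nme2, so their counts are less certain.

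Of 9 genes that MYC represses, 4 were higher and 2 lower in the KO (median 0.38), beside 31.7% and 32.4% of all genes. The cyclin-dependent kinase inhibitor Cdkn1a, also a p53 target, averaged 65.5 CPM in WT, 291 in the KO, 79.5 at T12h and 69.3 at T48h (KO against WT 2.15 ± 0.08, edgeR adjusted p = 1.76e-10). Ndrg1, a differentiation and stress gene also induced by hypoxia, averaged 44.7, 185, 18.0 and 108 CPM (2.05 ± 0.10, edgeR adjusted p = 1.08e-09). Thbs1, thrombospondin 1, averaged 129, 41.8, 260 and 34.2 CPM and was lower in the KO (-1.62 ± 0.08, edgeR adjusted p = 2.12e-09). In the T12h rescue against the KO, 2 of the 9 were higher and 6 lower (median -1.26), and at T48h against the KO 2 were higher and 7 lower (median -0.80). These counts, too, stand beside 32.8% and 32.1% of all genes for T12h and 34.2% and 33.2% for T48h.

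**Figure D4:**
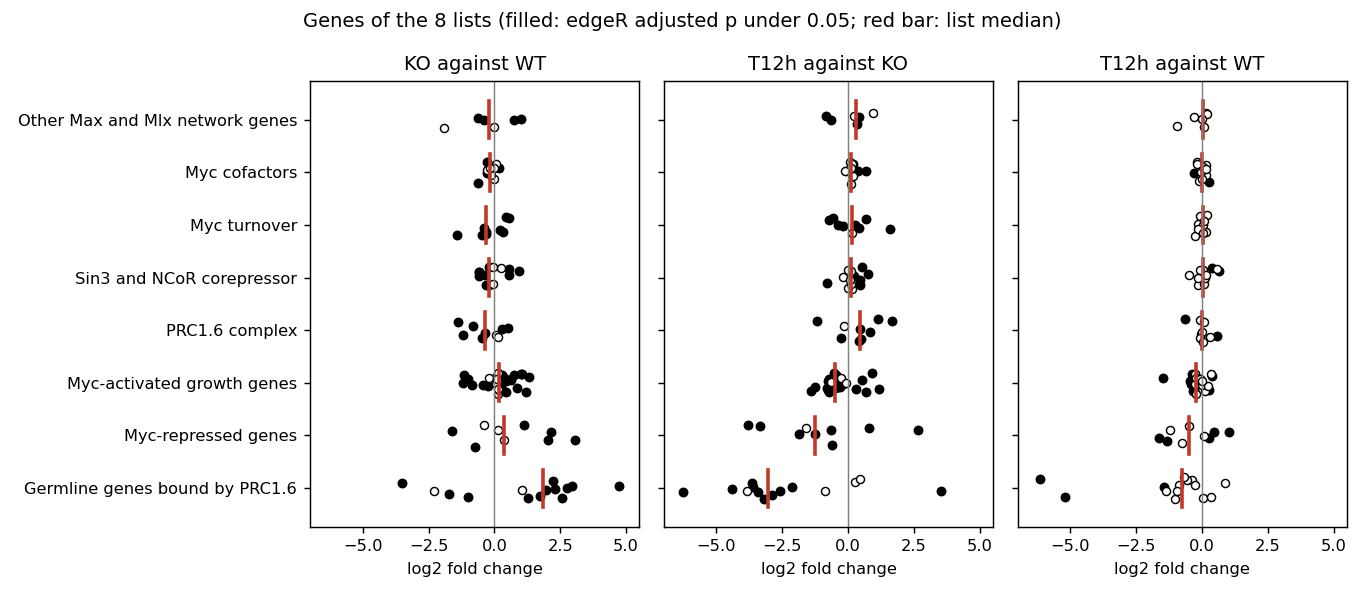
Log2 fold change of each gene (points) of the 8 lists in 3 comparisons, with filled points where the edgeR adjusted p was under 0.05 and a red bar at the list median. Germline genes have a median of 1.84 in the KO against WT and -3.04 in the T12h rescue against the KO, and the growth genes have medians of 0.17 and -0.49.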

How the data were processed

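Of the deposited tables, 1 gives estimated counts (fragments assigned to each locus) and 1 gives FPKM, per the file headers. Cufflinks 2.2.1, TopHat2 2.1.1, deepTools, SAMtools 1.5 and the build mm10 are named in the submitters' processing notes. The sources used here do not give the annotation or the strandedness. The counts had been multiplied by 1 factor per column (1 fragment worth 0.63 to 1.29; 90.5% to 92.0% of values were whole multiples within 0.02 fragments), which was divided out. Columns name the group only. Technical columns were therefore paired by agreement (chi-square per degree of freedom 1.6 to 1.83 within pairs, 9.09 to 16.5 between them, over genes with at least 20 counts summed), summed to 8 libraries and rounded. Of 28432 loci, 5143 without a name (3.16% to 6.12% of counts) and 8 marked as holding too many fragments stayed out.

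The test was that of edgeR 4.0.16 under R 4.3.3 (quasi-likelihood F-test, TMM, filterByExpr, all 4 groups in 1 fit with 4 residual degrees of freedom, Benjamini-Hochberg adjustment over 16130 genes, threshold 0.05). The script was first tested on simulated data. An SE is the log2 fold change over the square root of its F. CPM are counts over the TMM-scaled library size. FPKM served for ratios between genes, and log2(FPKM + 1) and log2(FPKM + 0.1) for limma 3.58.1 as alternatives, with FPKM of at least 1 in 2 libraries. DESeq2 1.42.0 was another alternative. Duplicates are counted once each, and leaving out 1 leaves its group with a single library that is assumed to vary like the others. Positions are converted to 1-based, and overlaps come from GENCODE vM21.

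The members and lists were chosen with earlier results of these data known. Genes named are all members, Wdr5, the whole list of other Max and Mlx genes, and from each other list up to 3 with the smallest adjusted p in KO against WT. The rule also takes the 3 closest profiles per member. Srm and the genes with copies fall outside it.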

Additional observations from a re-analysis of the deposited data

Results flagged for a closer look

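For the genes here, the effect of the rescue against the KO differed between T48h and T12h, by edgeR's test of the 2 rescues against each other at an adjusted p under 0.05. The values are T48h minus T12h on the log2 scale. Among the members they were 1.04 for Mycn, 0.42 for Max, 0.42 for Mxd4 and 0.30 for Mga, and all but that of Mycn were lost without T12h a. Among the other Max and Mlx genes they were -1.95 for Mycl, 0.48 for Mxi1 and 0.24 for Mlxip, and 13 of 19 alternatives ended the last, which was 0.13 to 0.24 without WT a, WT b, KO a, T12h a, T12h b or T48h b. For cofactors, corepressors and PRC1.6 they were -0.38 for Zbtb17, 1.64 for Rbbp7, 0.44 for Arid4b, 0.71 for Yaf2, -0.30 for E2f6 and -0.60 for Ring1. For target genes they were 0.68 for Ldha, -0.33 for Ccnd2, 2.59 for Ndrg1, -2.92 for Thbs1, -2.54 for Tdrkh and 0.69 for Ddx4. That of Zbtb17 was lost without T12h a (-0.28, adjusted p = 0.0864), and that of Ddx4 in 9 alternatives, among them leaving out WT b or any T12h or T48h library (0.57 to 0.71). No group is large enough to look for single outlying libraries.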

How the results depend on the processing

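Of 42 member values, 23 passed the test, 14 of these kept call and direction in all 19 alternatives, 9 lost the call in at least 1, and 0 changed sign. Of the 19 that did not pass, 3 passed in at least 1 alternative and 6 changed sign. Over the left-out libraries, the sign changes were Max in the KO against WT (-0.04 to 0.19), Mnt in T12h against KO (-0.17 to 0.13), in T48h against T12h (-0.29 to 0.01) and in T48h against WT (-0.00 to 0.08), and Mxd3 in T48h against T12h (-0.12 to 0.30). With upper-quartile scaling, Max in T48h against KO was -0.01 and Mnt in T48h against WT -0.06. Mycl in the KO against WT, -0.02 by edgeR, was 0.04 with RLE scaling and DESeq2, 0.00 with upper-quartile scaling and the first technical column alone, 0.01 with the second, 0.05, 0.06 and 0.05 with limma, and -0.09 to 0.03 over the left-out libraries. The members called numbered 1 to 4 for T48h against T12h and 2 to 3 for T48h against WT over the left-out libraries, and 2 for the latter with upper-quartile scaling. All genes called for T12h against WT, 2261, numbered 1070 to 2571 over the left-out libraries and 1436 with limma on log2(FPKM + 1) and no filter. With the genes of chromosome 8 left out, all genes called for T12h against WT numbered 1621 of 15278 tested. Of these, 795 were higher and 826 lower, beside 1275 and 986 with chromosome 8 included. The cause of these shifts was not tested. Upper-quartile scaling moved the median of all genes to -0.15 for T48h against KO, -0.12 for T48h against T12h and -0.16 for T48h against WT, and changed the last comparison's split from 3858 higher and 3769 lower to 3053 and 4791. Alternatives for the lists and their named genes were chosen after seeing the data. Of those genes' printed calls in the KO against WT, that of Hcfc1 was lost in 6 of 19 alternatives. No paired analysis was possible because the columns carry no replicate number. Between KO and WT, the differences of Mnt and Max, 0.20 and 0.09 with an SE of 0.11 each, were not detectable at their spread between 2 libraries a group.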
